A study of Mus musculus with 2 samples.

Results

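The distal segment of mouse chromosome 6 carried 213 listed Pwp1 ChIP-seq peaks in embryonic stem cells, which are not taken here as proven binding sites. They are the peaks whose centre lies at or above 108 Mb on build mm9, and they make up 57.1% of the 373 peaks of chromosome 6 and 3.78% of the 5639 peaks of the whole list. The segment was chosen by the measured number of peaks per Mb, which was already known to be higher beyond this position. The higher density is therefore a description of the choice and not a result, and the comparisons below rest on peak width, on the scatter of the peaks inside the segment and on single positions. The study immunoprecipitated chromatin of E14.1 cells, a mouse embryonic stem cell line grown without feeder cells on gelatin in serum and LIF, with an antibody against Pwp1, and sequenced the DNA (ChIP-seq). The series holds 1 Pwp1 library and 1 input library made with no antibody. The labels name no genetic change or treatment and no replicate. The input library was not analysed here, and the peak list gives no count of reads, so the depth behind each peak is unknown. The copy number of chromosome segments in these cells was likewise not measured. The cell type could not be checked against marker genes, because the list holds positions only.

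Pwp1 is a nuclear protein built of WD repeats, a fold that serves as a platform for protein contacts, and its yeast relative takes part in making ribosomes. The series title connects Pwp1 with Stat3 signalling and the capacity of embryonic stem cells to differentiate. Stat3 is the transcription factor through which LIF holds mouse embryonic stem cells in the undifferentiated state. Nanog, which lies in the segment described here, encodes a homeodomain transcription factor of the same state. In ChIP-seq a peak is a stretch where sequenced fragments pile up, and its listed width depends on the fragments and on the settings of the peak caller. It is not the length of DNA that the protein touches.

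The segment ran from the boundary to the end of its last peak, a length of 41.5 Mb, and held 5.14 peaks per Mb (exact 95% Poisson interval 4.47 to 5.87). The 104.9 Mb between the first peak of the chromosome and the boundary, called proximal chromosome 6 below, held 160 peaks or 1.53 per Mb (1.30 to 1.78). These densities, 3.37-fold apart, follow from how the segment was chosen and were not tested. The Poisson intervals assume independent, evenly placed peaks and are too narrow where peaks are unevenly spread. The variance of the counts per 1 Mb bin was 1.7 times their mean in the segment and 1.49 times on proximal chromosome 6. The mean counts were 5.12 and 1.51 per bin, and the ratio depends on the mean, so it does not rank the 2 parts by unevenness. The first members inside the boundary were chr6:108060168-108060334, 167 bp wide, and chr6:108482310-108482495, 186 bp wide. The last peaks before it were chr6:107243625-107243816, 192 bp wide, and chr6:107862804-107863089, 286 bp wide. The peaks closest to the boundary on either side stood 197 kb apart.

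**Figure D1:**
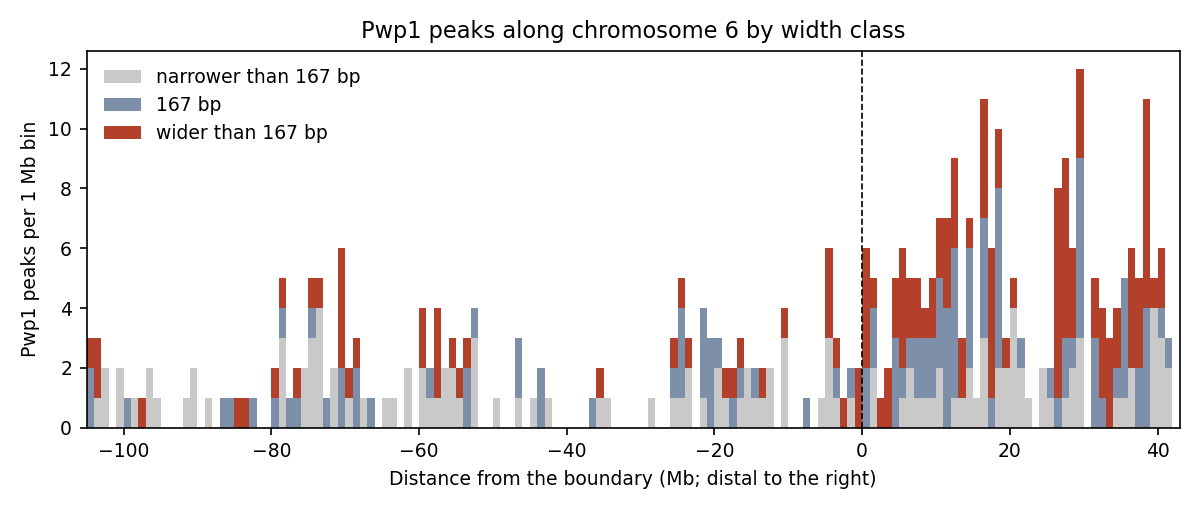
Number of Pwp1 peaks per 1 Mb bin of chromosome 6 (vertical axis) against the distance of the bin from the boundary in Mb (horizontal axis, distal to the right of the dashed line), stacked by width class. Distal bins reach 12 peaks and proximal bins 6, and narrower peaks make up a larger share of the proximal peaks (47.5%) than of the distal ones (23.9%).

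Inside the segment the peaks were spread over nearly its whole length. Of the 41 complete bins of 1 Mb, 39 held at least 1 peak (95.1%, exact 95% Clopper-Pearson interval 83.5 to 99.4). The empty bins were those from 131 to 132 Mb and from 138 to 139 Mb. The median bin held 5 peaks, 10 bins held exactly that number, and only 1 bin held 12. The fullest bins were those starting at 137 Mb with 12 peaks and at 124 and 146 Mb with 11 each. On proximal chromosome 6, 71 of 104 bins were occupied (68.3%, 58.4 to 77.1) and the median was 1 peak. A dense segment fills more bins than a sparse one by its number of peaks alone. Neither the occupancy of the segment nor this contrast is therefore a separate finding.

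In windows of 5 Mb counted from the boundary, the 8 complete distal windows held from 11 to 37 peaks with a median of 28. The first window, from 108 to 113 Mb, held 19 peaks. The window from 128 to 133 Mb was the sparsest with 11 peaks, and the next one, from 133 to 138 Mb, was the fullest with 37. Among the 20 complete proximal windows the count ran from 1 to 19 with a median of 5. The counts of 3 distal windows, the first, the sparsest and the one from 138 to 143 Mb with 16 peaks, lay inside the proximal range, and the segment is not a stretch of even density.

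**Figure D2:**
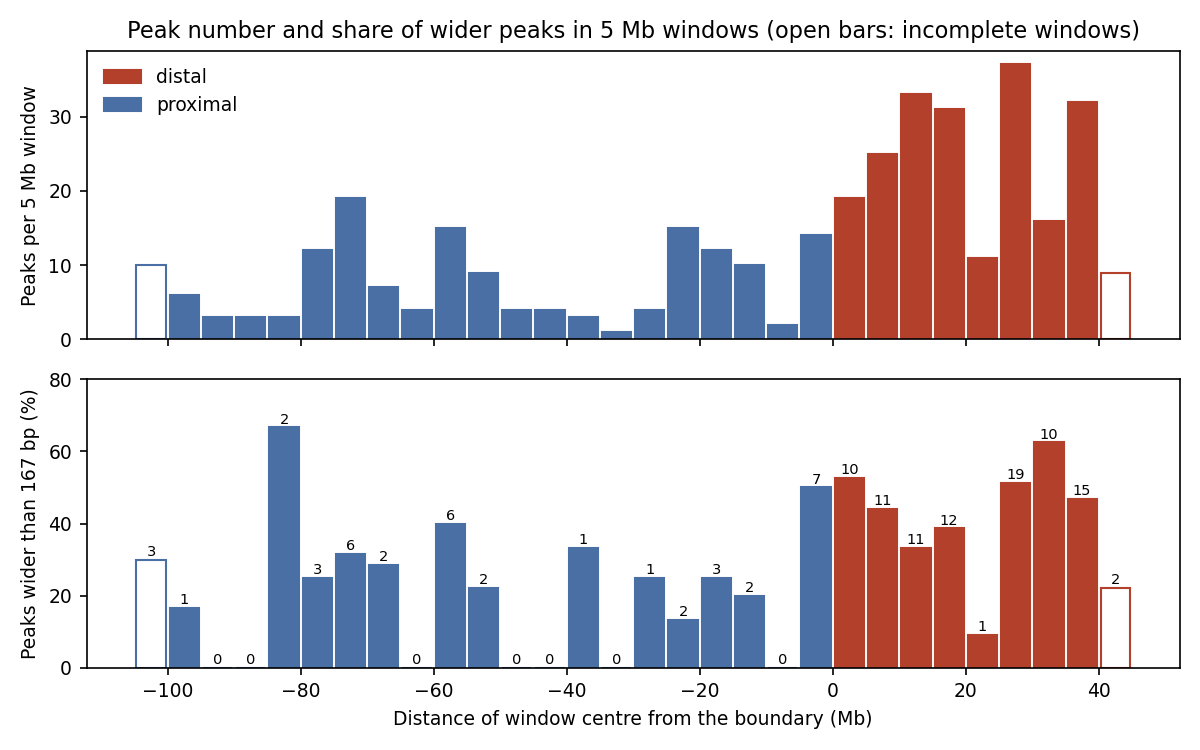
Peaks per 5 Mb window (upper panel) and the share of them wider than 167 bp in percent (lower panel, with the number of wider peaks above each bar) against the distance of the window centre from the boundary in Mb; open bars are incomplete windows. The distal window from 128 to 133 Mb stands out with 11 peaks, of which 1 was wider than 167 bp.

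Peak width was not used in choosing the segment, but it comes from the same reads and peak caller as the density. Peaks wider than 167 bp made up 42.7% in the segment, 37.55% on chromosome 1 and 46.35% on chromosome 11. These parts held 5.1, 4.1 and 5.0 peaks per Mb. On proximal chromosome 6 and the 15 other autosomes, with 1.5 and 1.9 per Mb, the shares were 25.6% and 26.5%. Whether width is separate from density was not tested, because depth and copy number are unknown. A width of 167 bp was the commonest in the list, and it divides the members into 51 narrower peaks, 71 peaks of exactly that width and 91 wider ones. The narrower members spanned 62 to 166 bp with a median of 125 bp, and the wider ones 169 to 362 bp with a median of 208 bp. Over all members the median was 167 bp, the quartiles were 167 and 199 bp and the mean was 181 ± 51.4 bp (SD over peaks). Wider peaks made up 42.7% of the members (exact interval 36.0 to 49.7), where the whole list had 32.0%. Narrower peaks made up 23.9% (18.4 to 30.2), where the whole list had 37.6%. The members thus held fewer narrow peaks and more wide ones than the list at large, while the share at exactly 167 bp was similar, at 33.3% against 30.5%.

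The contrast within chromosome 6 was found at both ends of the width range. On proximal chromosome 6, 76 of 160 peaks (47.5%, 39.6 to 55.5) were narrower than 167 bp. The share in the segment minus this share was -23.6 percentage points (Newcombe 95% interval -32.9 to -13.8). Peaks wider than 167 bp were 17.1 points more frequent in the segment (7.37 to 26.2). Peaks wider than 200 bp numbered 52 of 213 in the segment (24.4%) and 17 of 160 on proximal chromosome 6 (10.6%), a difference of 13.8 points (5.99 to 21.1). Peaks wider than 250 bp numbered 21 (9.86%, 6.21 to 14.7) and 4 (2.50%, 0.685 to 6.28). In the whole list 17.25% of peaks were wider than 200 bp and 5.85% were wider than 250 bp. The lower quartile was 167 bp in the segment and 124 bp before it, whereas both medians were 167 bp. None of the 3 difference intervals above included 0, but they treat peaks of 1 library as independent, cover counting error only and have no replicate behind them. No p-value is given for this reason. Whether the width contrast is separate from the density by which the segment was chosen was not tested.

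**Figure D3:**
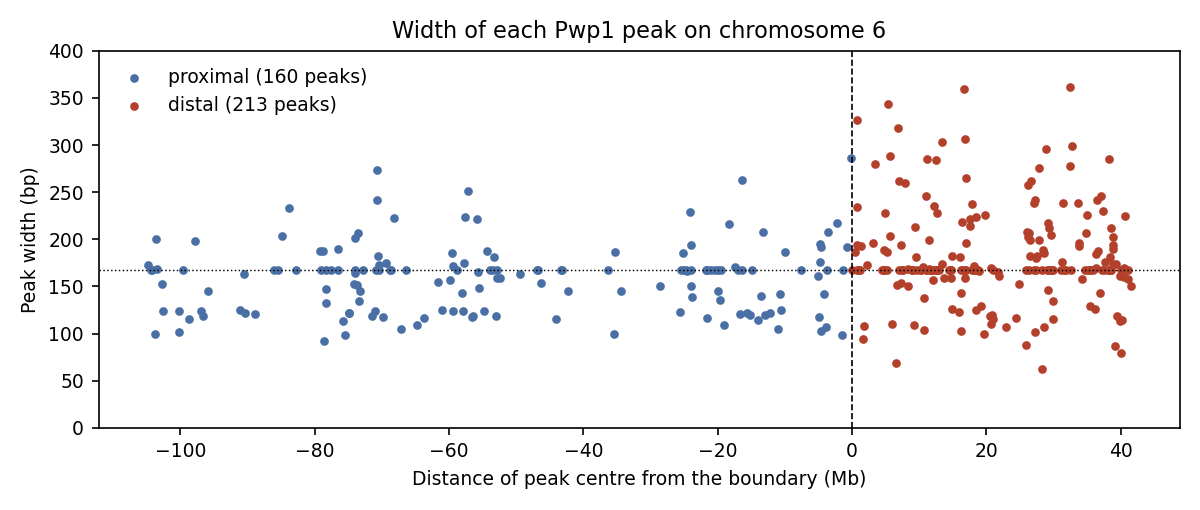
Width in bp of every Pwp1 peak on chromosome 6 (vertical axis) against the distance of its centre from the boundary in Mb (horizontal axis); the dotted line marks 167 bp. Distal peaks reach 362 bp and proximal peaks 286 bp, and both sets overlap over most of their range.

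The width classes of the distal segment were also set beside those of chromosomes 1 and 11, dense over their length, and of the 15 autosomes other than 1, 6, 11 and 14. Chromosome 14, known from earlier results to be dense in its distal part, was put in neither set. The 15 other autosomes were kept whole. Their bins of 1 Mb held up to 12 peaks, so this set is not free of dense stretches. Narrower peaks made up 25.5% (22.5 to 28.7) of 799 peaks on chromosome 1 and 21.7% (18.5 to 25.3) of 589 on chromosome 11. The segment differed from them by -1.59 points (-7.69 to 5.22) and 2.21 points (-4.09 to 9.13), intervals that include 0. For wider peaks the differences were 5.18 points (-2.13 to 12.6) from chromosome 1 and -3.63 points (-11.2 to 4.18) from chromosome 11. Peaks over 200 bp were fewer in the segment than on chromosome 11, at 24.4% against 31.7% (difference -7.34 points, -13.9 to -0.160). On the 15 other autosomes 44.9% of 3425 peaks were narrower than 167 bp (43.2 to 46.6) and 26.5% were wider (25.0 to 28.0). Chromosomes 1 and 11 were taken for this comparison because their density was known to be high, so these values are a description and were not tested, and an interval that includes 0 does not show that the parts are alike.

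**Figure D4:**
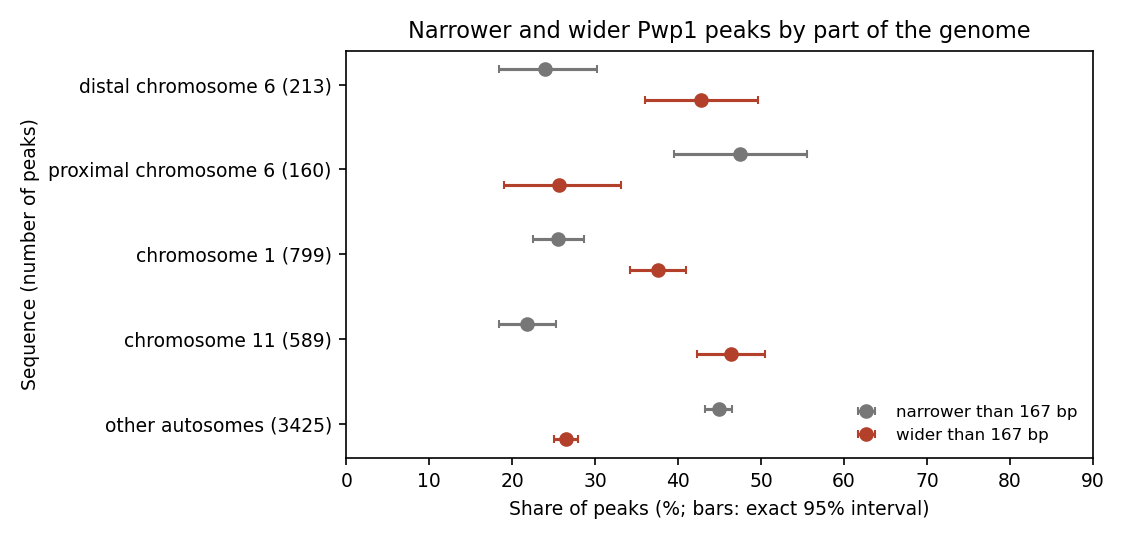
Share of peaks narrower (grey) and wider (red) than 167 bp, in percent with exact 95% intervals, in 5 parts of the genome with their number of peaks. In distal chromosome 6 and on chromosomes 1 and 11 the wider share lies above the narrower one, and on proximal chromosome 6 and the other autosomes the order is the opposite.

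Along the segment the wider peaks did not gather on one side. Among the first 106 members 43 were wider than 167 bp (40.6%, 31.1 to 50.5), and among the last 107 members 48 were (44.9%, 35.2 to 54.8). By 5 Mb window the share of wider peaks ran from 9.09% to 62.5%. The highest share, 10 of 16 peaks, was found from 138 to 143 Mb, a window of below-median count. The fullest window, from 133 to 138 Mb, had 19 wider peaks of 37 (51.4%). In the sparsest window, from 128 to 133 Mb, 1 of 11 peaks was wider, at 170 bp, and 9 were narrower than 167 bp, with a median of 120 bp. That window therefore had both fewer and narrower peaks than every other complete distal window. The window just before the boundary, from 103 to 108 Mb, held 14 peaks, of which 7 were wider (50.0%). That share lay inside the distal range, which also includes the 25.6% of proximal chromosome 6 as a whole. Over the complete proximal windows the share ran from 0 to 66.7%, on as few as 1 peak, so single windows of both parts overlapped.

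The 5 widest members lay apart from each other. The widest was chr6:140509633-140509994 with 362 bp, followed by chr6:124677726-124678084 with 359 bp and chr6:113416186-113416528 with 343 bp. The fourth was chr6:108718320-108718646 with 327 bp, 0.719 Mb inside the boundary, and the fifth was chr6:114823983-114824300 with 318 bp. Each of these exceeded the widest proximal peak, at 286 bp. None of them exceeded the widest peak of chromosome 1 (494 bp), chromosome 11 (976 bp) or the 15 other autosomes (414 bp). The fourth had another member 8.69 kb away, chr6:108727056-108727289 with 234 bp, which was itself among the wider class. The other wide ones had their nearest peak at 29.7, 136, 178 and 78.0 kb. The narrowest member was chr6:136217802-136217863, with 62 bp, and the last member of the chromosome was chr6:149474603-149474752, with 150 bp. No gene or sequence is given for these positions, because neither bases nor genes of mm9 were at hand.

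Neighbouring members were a median of 121 kb apart, centre to centre, with quartiles of 51.7 and 234 kb. On proximal chromosome 6 the median was 373 kb. This difference follows from the density by which the segment was chosen. Relative to the mean distance, which removes density, the median was 0.617 in the segment, 0.566 before the boundary, 0.611 on chromosome 1 and 0.624 on chromosome 11. The coefficient of variation of the distances was 1.21 in the segment and 1.44 before it. It was 1.17 on chromosome 1, 1.23 on chromosome 11 and 1.60 on the 15 other autosomes. The scaled median of the segment lay between those of chromosomes 1 and 11. It was higher than that of the 15 other autosomes (0.456) and of the whole list (0.428), both of which pool chromosomes. No test was made.

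**Figure D5:**
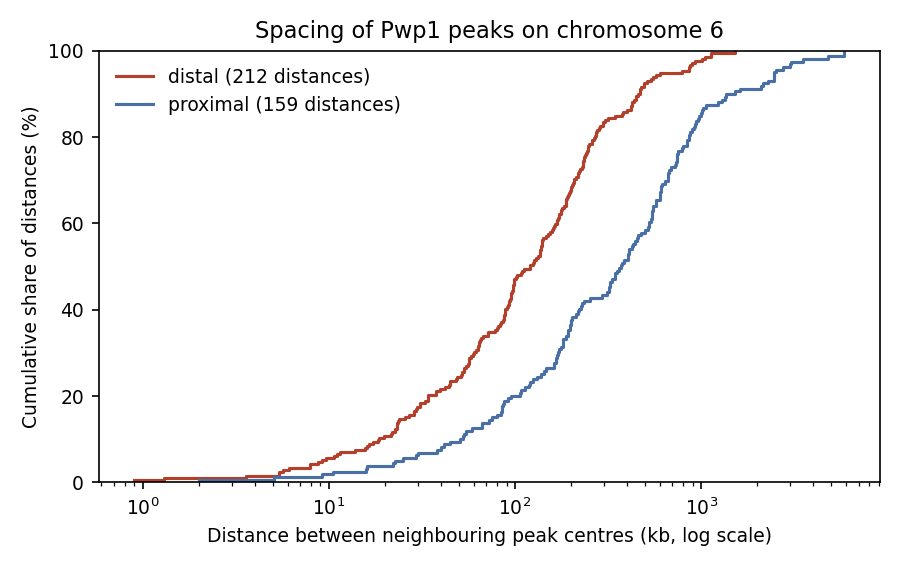
Cumulative share of distances between neighbouring peak centres, in percent, against the distance in kb on a log scale, for distal and proximal chromosome 6. The distal curve lies to the left, with a median of 121 kb against 373 kb.

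Close pairs were a small part of the members. A neighbour within 10 kb was found for 24 of 213 (11.3%, 7.35 to 16.3), which form 12 separate pairs, where the whole list had 7.59% and proximal chromosome 6 had 6 of 160 (3.75%, 1.39 to 7.98). The share was 7.26% on chromosome 1, 9.17% on chromosome 11 and 6.63% on the 15 other autosomes. A denser stretch can hold more such pairs by its density, but the share expected from density was not computed. The closest pair was chr6:148042666-148042832 and chr6:148043554-148043632, with widths of 167 and 79 bp and centres 844 bp apart. The second was chr6:119506790-119506988 and chr6:119508147-119508315, with 199 and 169 bp and centres 1.34 kb apart. The third was chr6:136631799-136631905 and chr6:136635412-136635596, with 107 and 185 bp and centres 3.65 kb apart. Width did not detectably separate members with a close neighbour from the others. Their median was 167 bp, as was that of the 189 isolated members, and 45.8% (25.6 to 67.2) of the former and 42.3% (35.2 to 49.7) of the latter were wider than 167 bp.

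Peak-free gaps broke the segment in a few places. The longest separated chr6:130896618-130896724 from chr6:132413768-132413883, with 1.52 Mb between their centres, and lay within the sparse window named above. Both flanking peaks were narrow, at 107 and 116 bp. The second, of 1.13 Mb, followed chr6:137986280-137986414, where the fullest 1 Mb bin of the segment ends. The third, of 1.12 Mb, lay between chr6:111399381-111399660 and chr6:112523159-112523325.

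The Nanog region, which the definition of the segment places near 122.6 Mb, held a compact group of peaks. Nanog, Gdf3 and Dppa3 are neighbouring genes known for their activity in pluripotent cells. In the RefSeq gene table of the later build GRCm38 the protein-coding genes around it follow in the order Apobec1, Gdf3, Dppa3, Nanog, Slc2a3 and Foxj2. Apobec1 encodes a cytidine deaminase, Gdf3 a ligand of the TGF-beta family, Dppa3 a maternal factor that protects DNA methylation in the early embryo, Slc2a3 a glucose transporter and Foxj2 a forkhead transcription factor. The positions of these genes on mm9 were not used here, so no peak is assigned to any of them.

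The bin from 122 to 123 Mb held 7 peaks, more than the median of 5, while 7 other bins held more than it did. All of its peaks lay within 381 kb, between 122,485,553 and 122,866,807. This was the sixth shortest of the 207 stretches of 7 consecutive members, of which the shortest was 345 kb and the median 988 kb. These stretches overlap one another, and their length of 7 members was set by this bin, so the rank is description only. On either side the group was bordered by long gaps, of 866 kb before and 1055 kb after, the latter being the fourth longest of the segment.

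The peaks of this group were of ordinary width. In order along the chromosome they were chr6:122485553-122485719 with 167 bp, chr6:122623576-122623742 with 167 bp, chr6:122668386-122668544 with 159 bp and chr6:122674482-122674648 with 167 bp. They were followed by chr6:122795038-122795204 with 167 bp, chr6:122858739-122858920 with 182 bp and chr6:122866682-122866807 with 126 bp. The second, the third and the fourth of them were the members nearest to 122.6 Mb, and the third and the fourth formed a pair 6.10 kb apart. The last ones of the group formed another pair, 7.92 kb apart. Of the 7 peaks 4 had the commonest width, 2 were narrower and 1 was wider. The group was thus compact but did not share the higher share of wide peaks of the segment, although 7 peaks allow no firm statement about a share.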

How the data were processed

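The file analysed was the peak list of the Pwp1 ChIP library, which the authors deposited with 3 columns (chromosome, start, end in base pairs) and no score. Per the submitters' processing notes, CASAVA 1.4, Bowtie 0.12.7, HOMER 4.3 and the build mm9 were used. What each did, and the peak threshold, is not given in the sources used here. Starts were read as counted from 0 and are printed counted from 1. In all 5639 lines the start lay below the end.

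Members, comparisons and named positions were chosen with earlier results of these data known. Named peaks are the 5 widest, the narrowest, those at the edges and near Nanog, the 3 closest pairs, the 3 longest gaps and the 3 fullest bins. Shares have exact Clopper-Pearson intervals, densities exact Poisson intervals and differences of shares Newcombe intervals, all at 95%. The calculations were tested on simulated data, with peaks placed uniformly at random and widths drawn independently. The peaks here are more unevenly spread, so that test does not show that the intervals hold for them. Python 3.11.15, numpy 2.4.6, pandas 2.3.3, scipy 1.17.1 and matplotlib 3.10.9 were used. Planned counts of genes, base composition and motifs needed an mm9 genome or annotation and were not made.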

Additional observations from a re-analysis of the deposited data

How the results depend on the processing

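Of 32 recomputed values 26 stayed within the 95% interval of the reported value or, for counts, within 1.5 times. The 5 among them that were differences, the values that could change sign, stayed positive. Some of the 26 could hardly move, so their number is a weak measure of stability. Merging peaks within 1 kb took the members only from 213 to 212, and the interval of the median width was 167 to 167 bp. With the limit at 200 bp in place of 167 bp the share of wider members was 24.4%. Without peaks of the commonest width the median width was 183 bp and the median distance between neighbours 187.5 kb. The number of members was then 142, which stayed within 1.5 times only at the very limit. With a neighbour counted within 5 or 20 kb, 2.82% or 20.2% of members had one. In bins of 2 Mb 100% were occupied. These changes follow from the altered definitions. The difference of 17.1 points in wider peaks was 19.9 and 13.3 with the boundary 5 Mb earlier and later, and 15.3 without the fullest window. The expected occupancy of evenly placed peaks was not run, nor the alternatives that need a genome. No paired analysis was possible because only 1 library was immunoprecipitated. Read depth was not analysed here.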

Other observations

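The run of members without a wider peak was longest in the sparse part of the segment, a pattern noticed after the values were seen. From 128,711,526 to 133,953,400, over 5.24 Mb, 11 members in a row were at most 167 bp wide, 9 of them narrower, and the narrowest had 88 bp. The next longest such run had 7 members, from 126,431,288 to 127,689,741. In the adjoining bin from 134 to 135 Mb, 7 of 8 members were wider than 167 bp. Whether the change in width there exceeds what neighbouring peaks of 1 library show by sampling was not tested.

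The stretch with the most closely set members was not that of Nanog. The shortest stretch of 7 consecutive members ran from 124,677,726 to 125,022,731 over 345 kb and began with the second widest member of the segment, of 359 bp. The next shortest that did not overlap it ran from 146,464,157 to 146,816,766 over 353 kb. The genes of these stretches were not analysed here.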
